A study of Mus musculus with 8 samples.

Results

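The 10 genes described here encode transporters, channels and enzymes by which resting astrocytes serve neurons: Slc1a2, Slc1a3, Aqp4, Slc4a4, Gja1, Gjb6, Aldh1l1, Aldoc, Etnppl and Fabp7. They were taken by name from the 22180 genes measured, and all 10 were found, each by 1 probe set. The RNA came from whole brain of mice immunized with myelin oligodendrocyte glycoprotein (MOG), a model of multiple sclerosis, and sampled on day 14 at the disease maximum. Of 4 groups of 2 arrays each, those named NDP-MSH, 1 in wild-type and 1 in e/e mice, had received NDP-MSH, a long-acting analog of the melanocortin peptide alpha-MSH, by vein at 5 µg per mouse on days 8, 10 and 12, and the other 2 groups, 1 of each genotype, are labelled PBS. The e/e mice (C57BL/6Je/e, yellow coat) carry an inactive melanocortin 1 receptor, while wild-type mice have a black coat. The age and sex of the mice are not stated in the labels used here, nor whether each array is an animal of its own, so the p-values reflect only how far these arrays spread, which may be technical.

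Astrocytes take up glutamate released at synapses, hold water and pH balance at their endfeet on blood vessels, share metabolites through gap junctions, and run glycolysis and one-carbon metabolism. Loss of these functions can accompany the reactive state that astrocytes enter in inflamed brain. Some of the genes are used by astrocytes throughout the brain, while others are stronger in some regions. Slc1a3 and Fabp7 are strong in Bergmann glia of the cerebellum, Aldoc is strong there and is also made by Purkinje neurons, and Slc1a2 is strongest in the forebrain. Fabp7 is also a gene of radial glia and of glia in the olfactory bulb.

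The deposited values are centred gene by gene on the median of the 8 arrays, so a value is a log2 difference from that median and levels of different genes cannot be set against each other. Base 2 is an assumption, since the labels do not state it. The rounding steps left in the numbers placed the signal before centring at 8 or above for 9 of the 10 genes, against 22.7% of all probe sets. Gjb6 lay between 4 and 8. The 10 genes were therefore mostly in the brighter part of the array, which is as far as centred values can check that astrocyte RNA was measured.

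Mc1r, the receptor gene itself, stayed between -0.14 and 0.07 in all 8 arrays, and RNA level is no check of an allele that inactivates the protein. Arrays differed in marker genes of brain regions and of neighbouring tissue. Both wild-type NDP-MSH arrays were low in cerebellar neuron genes, with list medians of -2.19 and -1.79 over 10 genes, against -0.08 to 0.33 in the other 6 arrays. Anterior pituitary genes were high in wild-type NDP-MSH 1, with a median of 2.98 over 6 genes, against -0.07 to 0.06 elsewhere. Cdhr1, an olfactory bulb gene, reached 2.23 in wild-type NDP-MSH 2, against at most 0.49 elsewhere. The median of the 5 olfactory bulb genes was only 0.33 in that array, against -0.22 to 0.03 elsewhere. Eomes, of the same list, was highest in e/e PBS 2, at 0.77 against 0.33 in wild-type NDP-MSH 2. The Y-linked gene Eif2s3y lay at 2.78 and 2.87 in e/e mice given NDP-MSH and at 2.04 in e/e PBS 2, against -0.19 to 0.02 in the others. In bulk RNA, fewer cells of a type and less RNA per cell cannot be told apart.

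The genes differed widely in how much they varied. Etnppl spanned 1.30 and Fabp7 1.28 on the log2 scale over the 8 arrays, ranges larger than those of 98.3% of all genes. Slc4a4 spanned 0.80 and Aqp4 0.65. Gja1 spanned 0.37, Gjb6 0.32, Slc1a3 0.25, Slc1a2 0.23 and Aldoc 0.23, near or below the median gene at 0.33. Aldh1l1 spanned 0.12, a range smaller than that of all but 3.15% of genes.

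The start-site windows of the 2 genes with the widest range are shown because these genes lay at opposite ends in the same arrays. Each covers 250 bases before to 50 after an annotated start in RefSeq, build GRCm38.p6, plus strand: Etnppl at chr3:130617198-130617497 and Fabp7 at chr10:57784673-57784972. Gja1 also lies on chromosome 10, and no other 2 of the genes share a chromosome. Capitals mark TTGGC or its reverse complement, the core letters bound by nuclear factor I, a factor family of astrocyte development.
Etnppl: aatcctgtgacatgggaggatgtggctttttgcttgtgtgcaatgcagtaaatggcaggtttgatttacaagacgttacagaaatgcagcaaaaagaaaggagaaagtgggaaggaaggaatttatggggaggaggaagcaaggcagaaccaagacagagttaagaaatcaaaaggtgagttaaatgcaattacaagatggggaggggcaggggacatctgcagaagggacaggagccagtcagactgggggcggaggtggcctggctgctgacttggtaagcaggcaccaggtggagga
Fabp7: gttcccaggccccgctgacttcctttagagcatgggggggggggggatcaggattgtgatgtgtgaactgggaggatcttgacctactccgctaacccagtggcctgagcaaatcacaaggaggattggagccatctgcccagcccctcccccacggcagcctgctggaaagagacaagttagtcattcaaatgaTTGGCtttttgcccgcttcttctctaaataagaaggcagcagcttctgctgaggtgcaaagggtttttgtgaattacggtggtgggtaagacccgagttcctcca
The Etnppl window held no copy and the Fabp7 window held 1, while 46.7% of 32851 windows of this length held at least 1. A window for another Etnppl start, which overlaps the one shown, held 1 copy. The 2 windows of Slc4a4 held 3 and 1 copies, Slc1a2 and 1 window of Aldoc held 1 each, and those of Aldh1l1, Gja1, Gjb6 and Slc1a3 held none. The core letters of SOX sites, ACAAT, stood once in the Fabp7 window and nowhere in either Etnppl window, against 31.0% of all windows. Of the other windows, 1 of Aldoc and that of Slc1a3 held it once each. The clock E-box CACGTG, present in 7.2% of all windows, stood in none of the 12 windows searched, which belong to 9 of the 10 genes, Aqp4 not being searched. The STAT letters TTCNNNGAA, present in 8.3%, stood once in the Slc1a3 window and 2 times in 1 of the 2 Aldoc windows. Both strands were searched for each motif, and a match is a description of letters only.

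Etnppl encodes the lyase that breaks down phosphoethanolamine, a step of membrane lipid turnover, and is expressed mainly by astrocytes in brain. It lay at 0.085 and -0.085 in wild-type mice given NDP-MSH, against 0.87 and 1.00 in those given PBS. In e/e mice it lay at -0.30 and -0.24 with NDP-MSH, against 0.22 and -0.27 with PBS. Both wild-type PBS arrays thus stood above the 6 other arrays, which ran from -0.30 to 0.22. The wild-type groups did not overlap, and the difference was -0.94 ± 0.15 (log2, SE), which is 1.91-fold lower with NDP-MSH. It ranked 78 of 22180 genes by p and did not pass the adjustment over all genes (limma, adjusted p = 0.11). Leaving out e/e PBS 1 or e/e PBS 2 gives 1 and the same fit of the wild-type difference, since a single e/e PBS array adds no spread. The gap of 0.49 between the e/e PBS arrays then drops out of the SE, which was 0.09. Etnppl passed only in that fit, with its difference unchanged. In alternatives with 2 arrays in every group fitted, the adjusted p by limma ran from 0.0846 (only the 4 arrays compared) to 0.35 (quantile normalization).

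Fabp7 encodes the brain fatty acid binding protein, which carries fatty acids inside radial glia and astrocytes. It lay at -0.65 and 0.33 in wild-type mice given NDP-MSH, against -0.96 and -0.84 in those given PBS. In e/e mice it lay at 0.22 and 0.10 with NDP-MSH, against -0.10 and 0.10 with PBS. The wild-type PBS arrays were the lowest of all, the next was wild-type NDP-MSH 1, and the wild-type NDP-MSH arrays differed from each other by 0.98. The wild-type difference was 0.74 ± 0.27 (adjusted p = 0.347). It was 0.25 without wild-type NDP-MSH 2, the array with high Cdhr1, and 1.22 without wild-type NDP-MSH 1, the array with high pituitary genes. The part of those marker genes' tissues in the Fabp7 values was not tested.

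**Figure D1:**
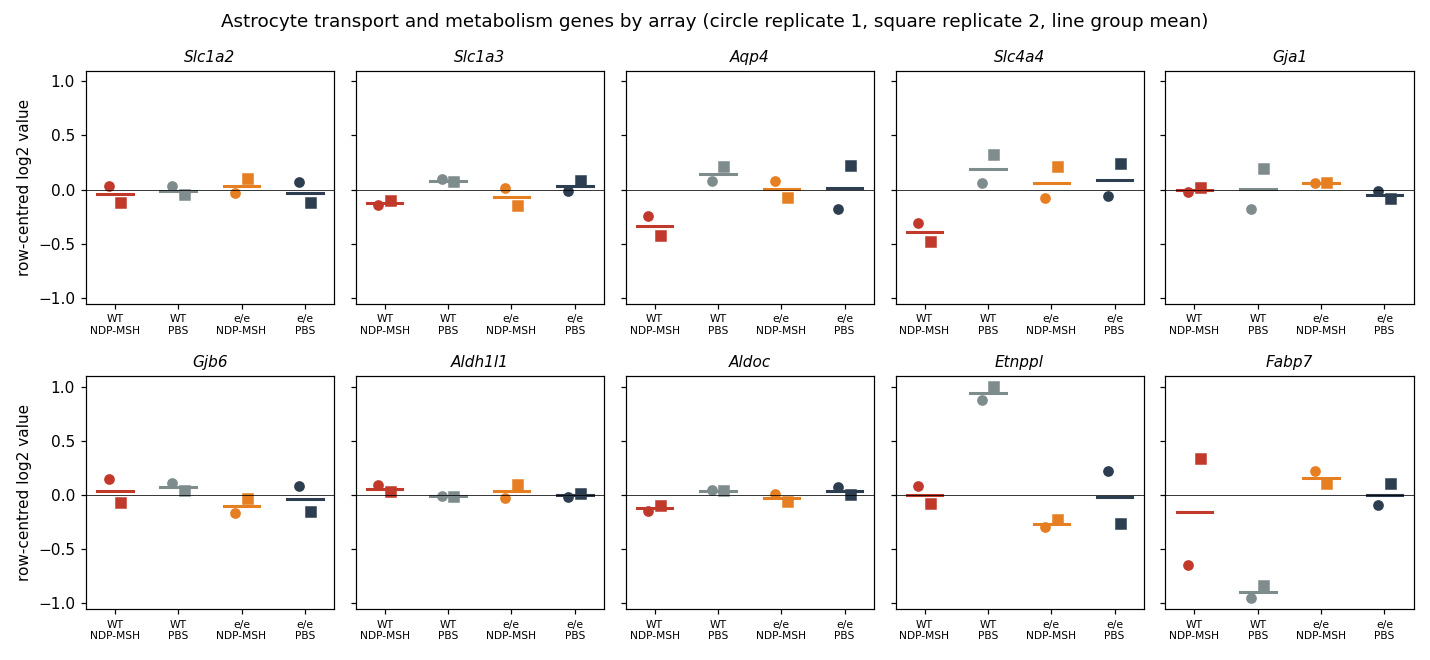
Row-centred log2 value (vertical axis) of each of the 10 genes in the 4 groups, with wild-type (WT) mice on the left and e/e mice on the right, NDP-MSH before PBS in each. Circles are replicate 1, squares replicate 2 and lines group means. Etnppl is high at 0.87 and 1.00 in WT PBS, Fabp7 is low there at -0.96 and -0.84, and Aldh1l1 stays within 0.12 over all arrays.

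The water and ion genes came next in size in wild-type mice. Aqp4 encodes the water channel of astrocyte endfeet. It lay at -0.24 and -0.43 in wild-type mice given NDP-MSH, against 0.08 and 0.21 in those given PBS. With NDP-MSH both arrays lay below both PBS arrays, and they were the lowest of the 8. The difference was -0.48 ± 0.14 (adjusted p = 0.283).

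Slc4a4 encodes the sodium bicarbonate cotransporter by which astrocytes buffer pH. It lay at -0.31 and -0.48 in wild-type mice given NDP-MSH, against 0.06 and 0.32 in those given PBS. These groups did not overlap either, and the difference was -0.59 ± 0.15, or 1.5-fold lower with NDP-MSH (adjusted p = 0.241). Of the 15 alternative settings, only quantile normalization, array median centring and leaving out a wild-type array moved the Aqp4 and Slc4a4 differences. Both genes stayed lower with NDP-MSH in those, between -0.57 and -0.39 for Aqp4 and between -0.72 and -0.46 for Slc4a4. The other settings left the differences unchanged. Neither gene passed in any setting that kept all arrays of the groups compared.

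The 2 glutamate transporters gave differences of unlike size. Slc1a3 encodes GLAST, the transporter of Bergmann glia and, more weakly, of other astrocytes. It lay at -0.14 and -0.11 in wild-type mice given NDP-MSH, against 0.09 and 0.07 in those given PBS, a small gap that was wider than the spread within either group. The difference was -0.20 ± 0.08 (adjusted p = 0.382). Slc1a2 encodes GLT-1, the main glutamate transporter of the forebrain. It lay at 0.04 and -0.12 in wild-type mice given NDP-MSH, against 0.03 and -0.05 in those given PBS, and the groups overlapped. Its difference was -0.03 ± 0.10, with a 95% interval of -0.27 to 0.20.

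Aldoc, the aldolase of astrocyte glycolysis, ran with Slc1a3 in size and direction. It lay at -0.15 and -0.10 in wild-type mice given NDP-MSH, against 0.04 and 0.04 in those given PBS. The groups did not overlap, and the difference was -0.17 ± 0.07 (adjusted p = 0.407). Aldh1l1, the folate enzyme used as a marker of astrocytes in general, lay at 0.09 and 0.02 in wild-type mice given NDP-MSH, against -0.01 and -0.02 in those given PBS. This was a difference of 0.07 ± 0.07, opposite in sign and with an interval of -0.10 to 0.24.

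The gap junction genes showed no separation in wild-type mice. Gja1, which encodes the main connexin of astrocytes, lay at -0.03 and 0.01 in wild-type mice given NDP-MSH, against -0.18 and 0.19 in those given PBS. Gjb6, which encodes a connexin of mature grey matter astrocytes, lay at 0.15 and -0.07 in wild-type mice given NDP-MSH, against 0.11 and 0.04 in those given PBS. Both pairs of groups overlapped. The differences were -0.01 ± 0.12 for Gja1 and -0.04 ± 0.11 for Gjb6, with intervals of -0.29 to 0.26 and -0.30 to 0.23.

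Over the 10 genes, 8 were lower and 2 higher in wild-type NDP-MSH arrays, with a median of -0.10, against a median of 0.02 over all genes, of which 45% were lower. None passed an adjusted p of 0.05 by limma, where 0.176% of all genes did (0.171% lower and 0.00451% higher). At an unadjusted p under 0.05 there were 5 of 10, against 12.3% of all genes. Etnppl, Slc4a4, Aqp4 and Slc1a3 were the lower ones, against 5.6% of all genes, and Fabp7 the higher one, against 6.72%. The groups did not overlap for 7 of 10, against 44.2% of all genes, with 5 lower, against 18.9%, and 2 higher, against 25.3%. Leaving out wild-type NDP-MSH 2 gave 6 lower and 4 higher, and leaving out any other wild-type array gave 7 and 3. The 6 genes taken as brain-wide (Aqp4, Slc4a4, Gja1, Gjb6, Aldh1l1 and Etnppl) had a median of -0.26 and ran from -0.94 to 0.07. The 3 taken as hindbrain- or cerebellum-biased (Slc1a3, Aldoc and Fabp7) had a median of -0.17 and ran from -0.20 to 0.74. Each class held genes of both signs, and the forebrain-biased Slc1a2 lay inside both ranges.

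**Figure D2:**
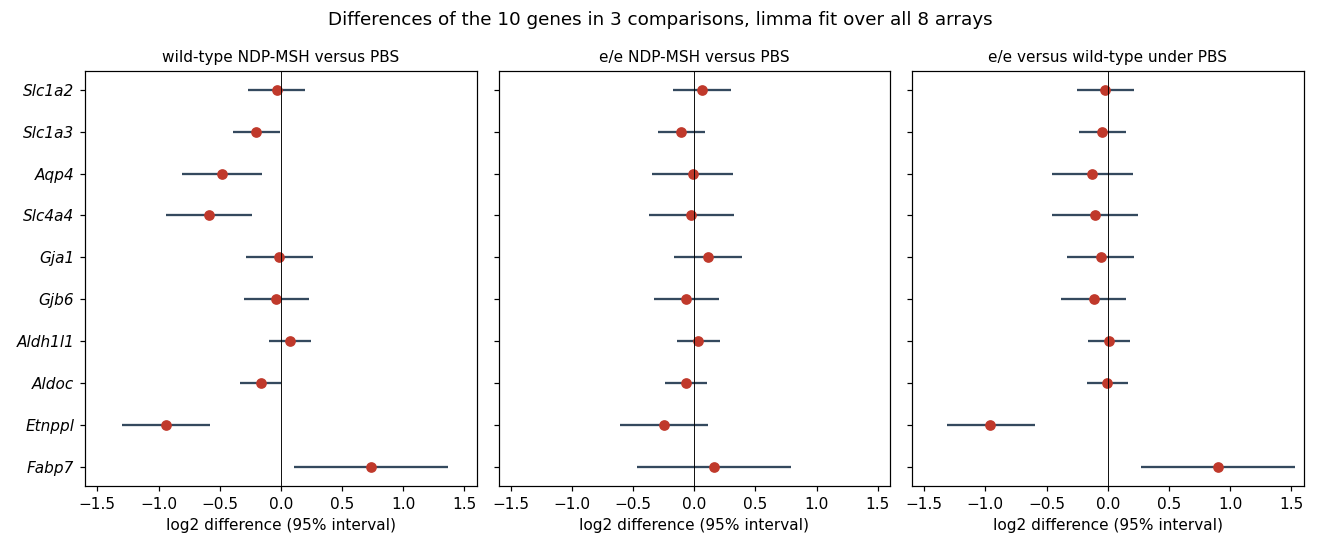
Log2 difference (horizontal axis, points) with its 95% interval (lines) for each of the 10 genes in wild-type NDP-MSH versus PBS, e/e NDP-MSH versus PBS and e/e versus wild-type under PBS. Etnppl lies at -0.94 in the first panel, -0.25 in the second and -0.96 in the last, and the first and last share the wild-type PBS arrays.

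Other genes known for regional astrocytes were read in the same wild-type comparison. Agt, which encodes angiotensinogen and is made by astrocytes outside the telencephalon, fell by 0.84 ± 0.09 (limma, adjusted p = 0.0235). It lay at -0.51 and -0.61 in wild-type mice given NDP-MSH, against 0.32 and 0.25 in those given PBS. All 4 measured genes of the non-telencephalic list were lower (median -0.37, 1 past the threshold). All 4 of the telencephalic list were higher (median 0.52, none past the threshold), with Crym at 0.55 ± 0.16 and Emx2 at 0.52 ± 0.20, though both are also expressed by neurons. Without wild-type PBS 2 none of the 22180 genes passed the threshold, Agt included.

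Bergmann glia genes were lower in 6 of 7 (median -0.43). The 1 higher gene, Npy2r, rose by 0.84, at 0.38 and 0.93 in wild-type mice given NDP-MSH, against -0.11 and -0.25 in those given PBS. Dao, the D-amino acid oxidase, fell by 1.96 ± 0.18 (adjusted p = 0.0168) and Gdf10, a secreted factor of Bergmann glia, fell by 1.48 ± 0.17 (adjusted p = 0.0314). Slc1a3 and Fabp7, which Bergmann glia also make, lay at -0.20 and 0.74 beside these values. The cerebellar neuron list had 10 of 10 genes lower in the same arrays (median -2.08, 7 past the threshold). Myelin and oligodendrocyte genes were lower in 11 of 11 and microglia and macrophage genes in 8 of 10, while forebrain neuron genes were higher in 10 of 10, none of them past the threshold. The part of cerebellar content in the values of the 10 genes was not tested.

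**Figure D3:**
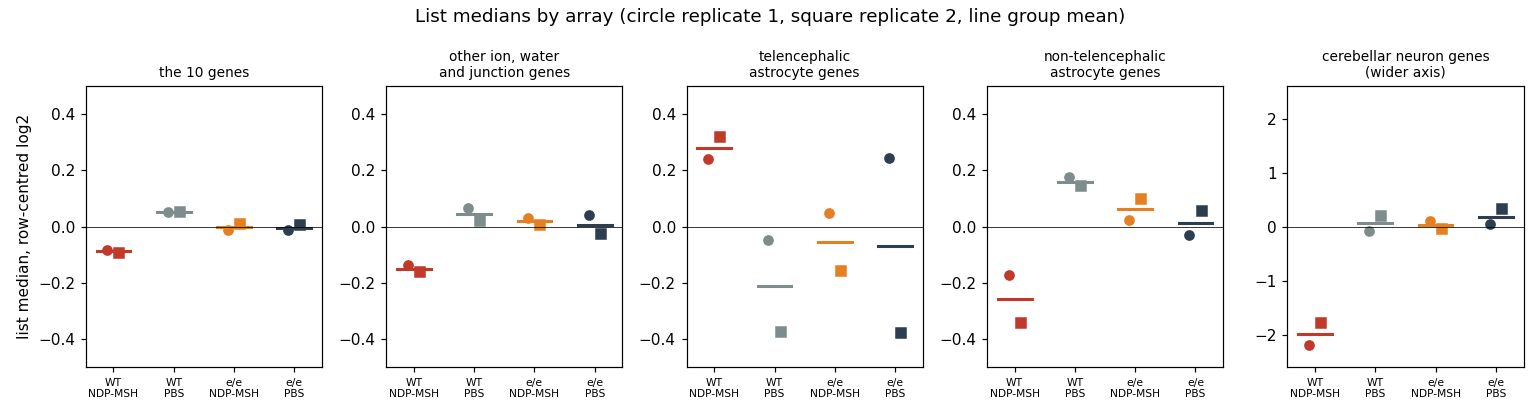
Median row-centred log2 value (vertical axis) of 5 gene lists in each array, with circles for replicate 1, squares for replicate 2 and lines for group means. The last panel has a wider axis. The 10 genes lie at -0.08 and -0.09 in wild-type NDP-MSH, against 0.05 and 0.05 in wild-type PBS, and the cerebellar neuron genes at -2.19 and -1.79, against -0.08 and 0.20.

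Further genes of resting astrocytes were read in the same wild-type arrays. Of 6 measured genes for ion, water and junction functions 6 were lower (median -0.19), with Atp1b2, a sodium pump subunit, at -0.27 ± 0.10 (adjusted p = 0.344) and Dtna, of the endfoot scaffold that holds Aqp4, at -0.17 ± 0.08. The median of that list was -0.14 and -0.16 in wild-type mice given NDP-MSH, against 0.07 and 0.02 in those given PBS. Of 6 transmitter uptake and recycling genes 4 were lower (median -0.07), with the GABA transporter Slc6a11 at -0.29 ± 0.14. Of 10 metabolism genes 7 were lower (median -0.11), with the phospholipase Pla2g7 at -0.30 ± 0.09 and the acyl-CoA synthetase Acsbg1 at -0.24 ± 0.10. Of 10 identity genes 6 were lower (median -0.04), with Nfia at -0.26 ± 0.10. None of these genes passed the adjusted threshold. The reactive astrocyte list was split, with 11 genes higher and 9 lower (median 0.02).

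In e/e mice, which lack a working melanocortin 1 receptor, the treated and PBS groups did not differ past the threshold for any of the 10 genes. No gene of the 10 had an unadjusted p under 0.05, against 3.56% of all genes (1.78% in each direction), and none passed the adjusted threshold by limma, where 0% of all genes did. The differences ran from -0.25 ± 0.15 for Etnppl to 0.16 ± 0.27 for Fabp7, with a median of -0.02. Leaving out e/e PBS 1 gave -0.001 for Etnppl and 0.06 for Fabp7. Leaving out e/e PBS 2 gave -0.49 and 0.26 for the same genes. Of the 10, 6 were lower, against 46.3% of all genes, whose median was 0.01. Leaving out each array in turn gave 4 to 7 lower.

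Aqp4 lay at 0.08 and -0.08 in e/e mice given NDP-MSH, against -0.18 and 0.21 in those given PBS. Slc4a4 lay at -0.08 and 0.21 with NDP-MSH, against -0.06 and 0.24 with PBS. In both genes the arrays of a group lay further apart than the group means, and the intervals of the difference ran from -0.34 to 0.32 for Aqp4 and from -0.37 to 0.32 for Slc4a4.

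Among the transporters and enzymes of region-biased use, Slc1a3 lay at 0.01 and -0.16 in e/e mice given NDP-MSH, against -0.01 and 0.08 in those given PBS. Slc1a2 lay at -0.03 and 0.10 with NDP-MSH, against 0.07 and -0.13 with PBS. Aldoc lay at 0.004 and -0.069 with NDP-MSH, against 0.076 and -0.004 with PBS. The groups overlapped for each of the 3, and their differences were -0.11 ± 0.08, 0.06 ± 0.10 and -0.07 ± 0.07 in the same order.

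Gja1 lay at 0.06 and 0.06 in e/e mice given NDP-MSH, against -0.01 and -0.09 in those given PBS. Gjb6 lay at -0.17 and -0.04 with NDP-MSH, against 0.08 and -0.16 with PBS. Aldh1l1 lay at -0.03 and 0.09 with NDP-MSH, against -0.02 and 0.01 with PBS. No gene of the other lists of resting astrocyte genes passed the threshold in e/e mice. The 6 transmitter uptake genes were all higher with NDP-MSH (median 0.14), among them the amino acid exchanger Slc7a10 at 0.21 ± 0.07 and the glutamine transporter Slc38a3 at 0.23 ± 0.12. Of the metabolism genes 7 of 10 were lower (median -0.03), of the identity genes 7 of 10 higher (median 0.03), and of the ion, water and junction genes 4 of 6 higher (median 0.01).

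The groups in e/e mice did not overlap for 2 of the 10 genes, Gja1 and, by a margin lost in rounding, Fabp7, both higher with NDP-MSH, against 30.3% of all genes (16% higher and 14.3% lower).

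Markers of other states and of sex were read in the same e/e arrays. The reactive astrocyte list, whose genes astrocytes switch on in injury, was lower in 19 of 20 genes (median -0.48, none past the threshold), with array medians of -0.61 and -0.72 with NDP-MSH, against -0.56 and 0.15 with PBS. Interferon gamma response genes were lower in 14 of 14 (median -1.45, none past the threshold), with array medians of -1.90 and -1.93 with NDP-MSH, against -1.70 and 0.71 with PBS. Both lists hold Psmb8, so they are not fully separate readings. Xist lay at -4.46 and -4.56 in e/e mice given NDP-MSH, against 0.56 and -0.82 in those given PBS. The Y-linked gene Uty lay at 3.26 and 3.31 with NDP-MSH, against -0.14 and 2.32 with PBS. The Y-linked signal thus split the e/e PBS arrays while Xist separated the groups. In e/e PBS 2 the Y-linked signal stood together with Xist at -0.82, near wild-type NDP-MSH 2 at -0.56. Whether that array holds RNA of both sexes was not tested. The 10 genes had array medians of -0.01 and 0.01 in e/e mice given NDP-MSH, against -0.01 and 0.004 in those given PBS. The part of these signals in the values of the 10 genes was not tested.

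The differences between NDP-MSH and PBS arrays were compared across the 2 genotypes as the e/e effect minus the wild-type effect. The difference of effects was 0.69 ± 0.22 for Etnppl (limma, adjusted p = 0.559), 0.56 ± 0.21 for Slc4a4 and 0.47 ± 0.20 for Aqp4. These 3 had an unadjusted p under 0.05, all of them above 0, against 7.71% of all genes (4.05% above and 3.67% below), and none of the 10 passed the adjusted threshold by limma, where 0% of all genes did. For Fabp7 it was -0.58 ± 0.38, but -0.09 without wild-type NDP-MSH 2, -1.07 without wild-type NDP-MSH 1 and -1.53 after quantile normalization. Without e/e PBS 1 it was 0.27 for Aqp4, and without e/e PBS 2 it was 0.445 for Etnppl. The other 6 genes ran from -0.04 for Aldh1l1 to 0.12 for Gja1. A difference between the genotypes was thus not shown for any of the 10 genes. The arrays compared also differed in other ways. Cerebellar neuron genes had medians of -2.19 and -1.79 in wild-type NDP-MSH. The Y-linked gene Eif2s3y lay at 2.78 and 2.87 in e/e NDP-MSH, against -0.02 and 2.04 in e/e PBS. The part of tissue content and of sex in the differences of effects was not tested.

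The comparison of e/e with wild-type mice under PBS used the same wild-type PBS arrays as the wild-type treatment comparison, so the values of Etnppl and Fabp7 in both rest partly on the same 2 arrays. Etnppl had 0.22 and -0.27 in the e/e PBS arrays, against 0.87 and 1.00 in wild-type PBS, a difference of -0.96 ± 0.15. It ranked 4 of 22180 genes by p and had an adjusted p = 0.839 by limma, where 0% of all genes passed. Fabp7 had -0.10 and 0.10 in the e/e PBS arrays, against -0.96 and -0.84 in wild-type PBS, a difference of 0.90 ± 0.27 (adjusted p = 0.93) that was 2.00 after quantile normalization, without a call. The groups did not overlap for these 2 genes and overlapped for the other 8, against 34.1% of all genes without overlap (17.4% higher and 16.7% lower).

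The other 8 genes lay between -0.13 ± 0.14 for Aqp4 and 0.01 ± 0.07 for Aldh1l1 in the e/e against wild-type comparison. At an unadjusted p under 0.05 there were 2 of 10, Fabp7 higher and Etnppl lower, against 4.91% of all genes (2.35% higher and 2.56% lower). Of the 10, 8 were lower (median -0.05), against 49.9% of all genes. Without e/e PBS 1 there were 5 lower and 5 higher, and without e/e PBS 2 or wild-type PBS 2 there were 6 and 4. Of the other metabolism genes 8 of 10 were lower (median -0.05), with the fatty acid transporter Slc27a1 at -0.27 ± 0.10. The identity genes were split, with 5 higher and 5 lower (median 0.001). Among them the growth factor receptor Fgfr3 lay at -0.32 ± 0.10 and S1pr1 at 0.17 ± 0.08. None of these genes passed the threshold.

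Markers of other cells and states were also read in the genotypes under PBS. Microglia and macrophage genes were lower in e/e mice in 10 of 10 (median -0.64, 8 with an unadjusted p under 0.05), with array medians of -0.51 and -0.06 in e/e PBS, against 0.12 and 0.60 in wild-type PBS. Reactive astrocyte genes were lower in 17 of 20 (median -0.42) and interferon gamma response genes in 14 of 14 (median -0.71). The reactive list had array medians of -0.56 and 0.15 in e/e PBS, against 0.04 and 0.27 in wild-type PBS. For the interferon list they were -1.70 and 0.71, against -0.28 and 0.66. In both lists the e/e PBS arrays were thus split, and only e/e PBS 1 lay below both wild-type PBS arrays. The Y-linked gene Eif2s3y was split as well, at -0.02 and 2.04 in e/e PBS, against 0.02 and -0.07 in wild-type PBS. Y-linked signal and genotype thus cannot be fully told apart. No gene of the lists read here passed the adjusted threshold, and the part of these signals in the Etnppl and Fabp7 values was not tested.

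In order of group means, Etnppl was highest in wild-type PBS (0.94), followed by wild-type NDP-MSH (0.00), by e/e mice with PBS (-0.02) and by e/e mice with NDP-MSH (-0.27), and these last 3 neighbours did not differ beyond the spread of e/e PBS (SD 0.35, n = 2). Fabp7 ran the other way, lowest in wild-type PBS (-0.90), followed by wild-type NDP-MSH (-0.16, SD 0.69, n = 2), by e/e mice with PBS (0.00) and by e/e mice with NDP-MSH (0.16), and no neighbours above wild-type PBS differed beyond the spread of wild-type NDP-MSH.

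Pairs of genes were also set against each other inside each array, where a shift common to both cancels. Slc1a3 minus Slc1a2 was -0.17 and 0.02 in wild-type mice given NDP-MSH, against 0.06 and 0.11 in those given PBS. In e/e mice it was 0.04 and -0.26 with NDP-MSH, against -0.08 and 0.21 with PBS. The groups did not overlap in wild-type mice and overlapped in e/e mice. With 2 arrays against 2 the exact two-sided permutation test cannot go below p = 0.333, which was its value in wild-type mice, and it gave p = 0.667 in e/e mice.

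Gjb6 minus Gja1 was 0.17 and -0.09 in wild-type mice given NDP-MSH, against 0.29 and -0.15 in those given PBS, which overlapped. In e/e mice it was -0.23 and -0.10 with NDP-MSH, against 0.09 and -0.07 with PBS (exact permutation p = 0.333). Fabp7 minus Aldh1l1 was -0.74 and 0.30 in wild-type mice given NDP-MSH, against -0.94 and -0.82 in those given PBS. In e/e mice it was 0.24 and 0.01 with NDP-MSH, against -0.08 and 0.09 with PBS, which overlapped. Under PBS the mean of this pair was 0.885 higher in e/e than in wild-type mice. That pair followed Fabp7, since Aldh1l1 hardly varied. Without wild-type NDP-MSH 2 its difference between the wild-type groups was 0.14 in place of 0.66.

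**Figure D4:**
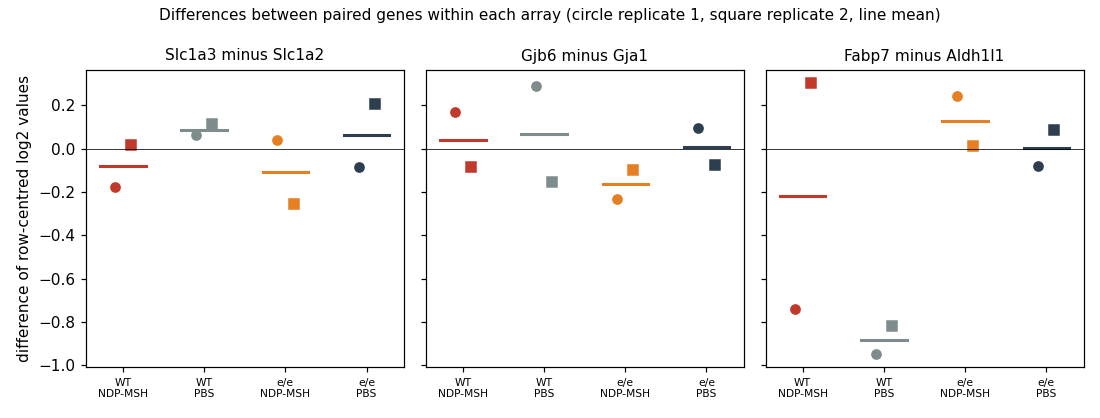
Difference of row-centred log2 values between 2 genes of the same array (vertical axis) for 3 pairs, by group, with circles for replicate 1, squares for replicate 2 and lines for means. Fabp7 minus Aldh1l1 lies at -0.94 and -0.82 in wild-type PBS, and wild-type NDP-MSH is split between -0.74 and 0.30.

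The genes whose profile lay closest to each of the 10 were found by the root-mean-square difference of the centred values over the 8 arrays, among 17188 other genes. Aqp4 was nearest to Clmn (0.045 on the log2 scale, where Aqp4 itself varied by 0.22), and Slc4a4 to Sptb (0.052, where Slc4a4 varied by 0.26). Both Clmn and Sptb were low in the 2 wild-type NDP-MSH arrays, at -0.25 and -0.42 for Clmn and -0.25 and -0.38 for Sptb. Gjb6 was nearest to Tef (0.047), Slc1a3 to Nkx6-2 (0.041) and Aldoc to Abcd3 (0.025).

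Slc1a2 was nearest to Sec63 (0.032), Gja1 to Uroc1 (0.038) and Aldh1l1 to Ccr3 (0.021). These 3 genes, Aldoc, Slc1a3 and Gjb6 themselves varied by only 0.047 (Aldh1l1) to 0.113 (Gjb6). The small distances thus do not make their nearest genes close matches. No gene came close to Etnppl or Fabp7: the nearest were Ly9 at 0.29, where Etnppl itself varied by 0.51, and Zfp931 at 0.33, where Fabp7 varied by 0.53. The mean of the 6 brain-wide genes, which varied by 0.135, was nearest to Rida (0.040), Aph1a (0.044), Pdpr (0.046) and Snapc4 (0.051). The mean of Slc1a3, Aldoc and Fabp7 was nearest to Micos10 (0.079), Dnase1 (0.079), Emc6 (0.080) and Cstf3 (0.091). That mean itself varied by only 0.175, so these were not close matches, and Fabp7, with the widest range of the 3, weighs most in it.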

How the data were processed

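Total brain RNA of 8 samples was made into biotin-labelled cDNA with an Affymetrix kit, per the labels' protocols. The deposited values are log2 by assumption, for 33793 probe sets, and every probe set has a median of 0 over the 8 arrays (to within 5e-07). How the authors summarised and normalized the arrays is not given in the sources used here, and neither is the log base. Probe sets with exactly 1 gene symbol in the platform annotation (23521) were averaged to 22180 genes, and those with several symbols (1814) or unnamed here (8458) were left out. No filter on low values was used, so all 10 genes entered the tests. The number of arrays limits the precision.

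A linear model with a mean for each of the 4 groups was fitted to all genes with limma 3.58.1 in R 4.3.3 (4 residual and 3.45 prior degrees of freedom). Tests were two-sided, and p-values were adjusted by Benjamini-Hochberg with a threshold of 0.05. The script was tested on simulated data with the residual spread of each gene. Of changes of 0.5 log2 it called 32% in the wild-type comparison and 44% in the e/e and genotype comparisons. For the difference of effects it called 2%, so a change of that size can go uncalled. Signal bands came from the single-precision step of the values (tolerance 0.05 of a step).

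The alternatives were a block for replicate number, weights for arrays, quantile normalization of the centred values, centring each array on its median, only the 4 arrays compared, separate probe sets in place of gene means, and each array left out. Robust moderation and the direction counts without each array were added after seeing the data. The genes, their region classes, the other lists and the naming rule were chosen with earlier results of these data known. By that rule all 10 genes are named, with up to 2 genes of smallest p from each other list and the nearest genes by root-mean-square difference (1 for each gene and 4 for each class mean, leaving out predicted, receptor-family and small RNA symbols). Start-site windows are from RefSeq (GRCm38.p6), matched by symbol. Scan dates and slides were not used here. Plots were made in Python 3.11.15 with matplotlib 3.10.9.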

Additional observations from a re-analysis of the deposited data

How the results depend on the processing

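None of the 10 genes passed the threshold in an alternative with 2 arrays in every group fitted. Etnppl in wild-type mice passed only without an e/e PBS array, which is the same fit whichever of the 2 is left out. None of the 150, 140 and 150 alternative values passed in the e/e comparison, the difference of effects and the genotype comparison under PBS. Over all genes the wild-type comparison called 39, and 14 with the replicate block, 20 after quantile normalization, 5 with only the 4 arrays compared, 22 with every probe set tested separately, and 0 (without wild-type PBS 2) to 49 (without either e/e PBS array) when an array was left out. Arrays left out gave 0 to 51 calls in e/e mice, 0 to 7 for the difference of effects and 0 to 4 for the genotypes under PBS, the highest each time without e/e PBS 1. Quantile normalization gave 1 call for the difference of effects. The replicate block changed no call among the 10 genes. The numbers do not mark shared animals or days in the labels, and same-numbered arrays deviated from their group means with correlations of -0.251 to 0.443 between groups. The quantile step acts on centred values and can stretch differences, with Fabp7 in wild-type mice at 1.71 after it, against 0.74 without it, and no call in either. The median of the 10 genes in wild-type mice was -0.116 after quantile normalization, -0.114 after array median centring and -0.177 to -0.102 without each array. It was -0.004 after quantile normalization and -0.024 to 0.047 without each array in e/e mice, 0.072 to 0.15 for the difference of effects and -0.055 to -0.012 for the genotypes under PBS. After quantile normalization Gja1 lay at 0.006 in wild-type and Aqp4 at 0.003 in e/e mice. Genes near 0 changed sign when an array was left out. Wild-type values ran from -0.114 to 0.044 for Slc1a2, -0.199 to 0.172 for Gja1 and -0.147 to 0.071 for Gjb6. In e/e mice they ran from -0.21 to 0.183 for Aqp4, -0.174 to 0.127 for Slc4a4, -0.036 to 0.163 for Slc1a2, -0.185 to 0.057 for Gjb6 and -0.023 to 0.092 for Aldh1l1. For the difference of effects they ran from -0.001 to 0.198 for Slc1a2, -0.061 to 0.31 for Gja1, -0.147 to 0.094 for Gjb6 and -0.095 to 0.02 for Aldh1l1. For the genotypes under PBS they ran from -0.323 to 0.071 for Aqp4, -0.255 to 0.046 for Slc4a4, -0.118 to 0.08 for Slc1a2, -0.091 to 0.002 for Slc1a3, -0.244 to 0.127 for Gja1, -0.235 to 0.007 for Gjb6, -0.002 to 0.028 for Aldh1l1 and -0.044 to 0.037 for Aldoc. The cause of these sign changes was not tested. In wild-type mice Etnppl, Fabp7, Aqp4, Slc4a4, Slc1a3, Aldoc and Aldh1l1 kept their direction in the alternatives that moved their values. Those were quantile normalization, array median centring and leaving out each wild-type array. The other alternatives left the wild-type differences unchanged.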
